A study of Mus musculus with 7 samples.

Results

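Induced pluripotent stem cells (iPSCs) made from bulk germinal center (GC) B cells were compared with the mouse embryonic stem cell (ESC) line V6.5, gene by gene. The libraries were chosen by their titles, GC#1-iPSC, GC#2-iPSC and GC#3-iPSC against V6.5, which is 4 of the 7 libraries sequenced. GC B cells are the B cells that divide, mutate and select their antibody genes after immunization. Male mice had been immunized with SRBC for 9 days, and splenic cells were sorted as B220+ CD38- Fas+. They were kept for 6 days with cytokines on MEF, a mouse embryonic fibroblast feeder layer. Dox, the drug that turns on the reprogramming genes, was given for 10 days and then withdrawn for 4 days. Single colonies were picked, grown for 1 passage on gelatin, and pre-plated for 45 min. All cultures were kept in KO-DMEM with FBS and LIF, a cytokine that holds mouse cells in the pluripotent state. V6.5 was derived from a hybrid of C57BL/6 and 129 mice. The labels name no strain, reprogramming alleles or donor for the colonies, and no batch or date is given. The cytokine culture, Dox and pre-plating steps are listed for the colonies and not for ESC. Cell source, strain, donor, line and culture history therefore cannot be told apart in this comparison, and 1 ESC library stands for the line. Each colony is 1 clone, and nothing says that the 3 clones came from separate animals, so the p-values measure only the spread between these libraries.

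Pluripotent mouse cells are held in the naive state by a set of transcription factors built around Oct4 (Pou5f1), Sox2 and Nanog, together with Klf4, Esrrb, Tbx3 and Tfcp2l1. Cells that leave this state pass through a formative state marked by Otx2, Fgf5 and Dnmt3b. A few cells in such cultures take on a 2-cell-like state with the Zscan4 genes of early embryos, and a few turn on genes of the primitive endoderm, the tissue that lays down the yolk sac basement membrane. Reprogramming must also keep imprints, the methylation marks that leave 1 parental copy of a gene active.

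Library totals ran from 31139508 counts in ESC to 31612440, 32272377 and 35728921 counts in the colonies. Across 20502 tested genes the log2 expression of each colony had a Pearson correlation with ESC of 0.961 to 0.969, and the colonies had 0.979 to 0.986 with each other. Genes are not independent replicates, and these values describe the libraries only. Values are given as CPM, counts scaled to a common library size with TMM, in the order colony 1, 2 and 3. A gene "rose" or "fell" where the quasi-likelihood test of edgeR gave a Benjamini-Hochberg adjusted p under 0.05 in a fit of all 7 libraries. The other 3, iPSC colonies of another source titled M, entered the filter of tested genes, the scaling and the estimate of spread. They did not enter the difference taken between the GC colonies and ESC. With 1 library on 1 side, an exact permutation test of a single value cannot go below 0.5, so the calls rest on the assumption that ESC varies like the colonies.

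By that test 1543 genes rose and 1130 fell, together 2673 genes or 13% of those tested. The rises were 7.53% and the falls 5.51% of tested genes, and these shares are the background for every list described here. At a log2 change of at least 1, 996 genes rose (4.86%) and 203 fell (0.99%). In all 2673 called genes the 3 colonies lay on the same side of ESC, which held for 68.1% of all tested genes, 34.7% with the colonies higher and 33.5% with them lower. Protein-coding genes made up 1329 of the rises and 1089 of the falls, noncoding genes 116 and 17, and pseudogenes 97 and 23. Among called genes the median size of change was 0.89 on the log2 scale, whereas the median range over the 3 colonies was 0.22. The test calls genes whose change is large against the spread between libraries. This gap, and the shared side of the called genes, therefore follow in part from the calling. The median over all tested genes was 0.018. With limma-voom, another test, 964 genes rose and 1124 fell, so that rises were 46.2% of the calls against 57.7% here. Without colony 2, 703 genes fell.

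**Figure D1:**
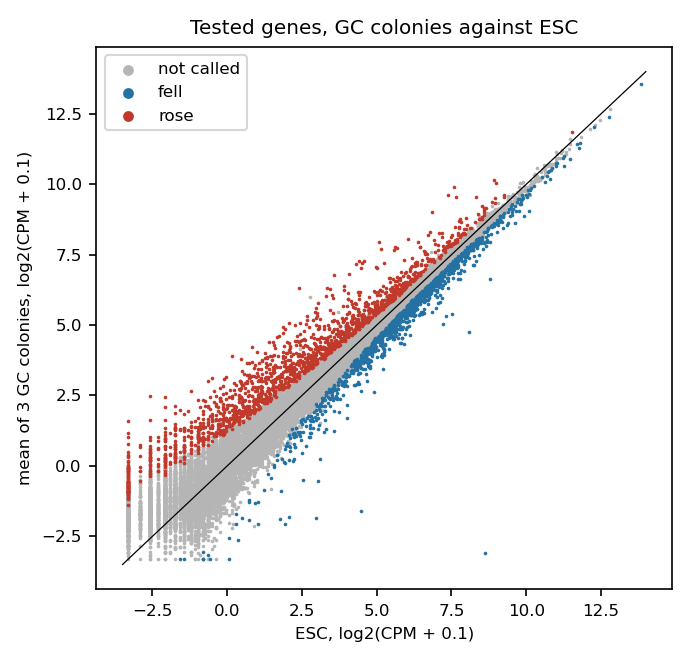
Mean expression in the 3 GC colonies (y axis) against the ESC library (x axis), both as log2(CPM + 0.1), for the tested genes. Red points are the 1543 genes that rose, blue points the 1130 that fell, and gray points the rest; the line marks equal values.

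The core naive regulators were lower in the colonies than in ESC, by about the same amount in each colony. Of 43 tested members of a list of naive and general pluripotency genes, 20 fell and 4 rose, with a median log2 change of -0.33. Pou5f1 was at 660.4 CPM in ESC and 372, 378 and 372 CPM in the colonies (log2 change -0.82, SE 0.070, edgeR adjusted p = 1.28e-05). Nanog was at 739.5 CPM in ESC and 487, 488 and 477 CPM in the colonies (log2 change -0.61, SE 0.093, edgeR adjusted p = 0.000705). The 3 colonies differed from each other by far less than from ESC for both genes. Klf4, a LIF-driven factor, had 787 CPM in ESC and 395, 380.4 and 399.6 CPM in the colonies (log2 change -1.01, SE 0.092, edgeR adjusted p = 1.87e-05). Klf2, its relative on chromosome 8, had 969 CPM in ESC and 507, 475 and 416 CPM in the colonies (log2 change -1.06, SE 0.11, edgeR adjusted p = 3.50e-05). Tcl1, a coactivator of the kinase Akt, showed the largest fall of the list, from 116 CPM to 45.9, 44.5 and 42.3 CPM (log2 change -1.39, SE 0.11, edgeR adjusted p = 7.93e-06). The nuclear receptor gene Esrrb was at 666 CPM in ESC and 372, 391 and 424 CPM in the colonies and the T-box factor gene Tbx3 at 209.6 CPM in ESC and 112, 113 and 119 CPM in the colonies. Both fell, by 0.75 and 0.87 on the log2 scale. Prdm14 and Nr5a2, further regulators of the naive state, fell as well, by 0.89 and 0.76. The Nodal co-receptor gene Tdgf1, the most highly expressed gene that fell in this list, was at 2042 CPM in ESC and 1576, 1626 and 1568 CPM in the colonies (log2 change -0.36, SE 0.089, edgeR adjusted p = 0.0159).

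Other members of the naive list did not follow. Sox2 was at 506 CPM in ESC and 421, 423 and 409 CPM in the colonies (log2 change -0.27, SE 0.086, edgeR adjusted p = 0.0521), below ESC in each colony but not past the threshold. Zfp42, also called Rex1 and used as a marker of the naive state, was at 346 CPM in ESC and 459, 473 and 465 CPM in the colonies (log2 change 0.43, SE 0.22, edgeR adjusted p = 0.23). Its level lay above ESC in each colony. Dppa3 was at 12.3 CPM in ESC and 16.3, 13.2 and 16.3 CPM in the colonies (log2 change 0.32, SE 0.22, edgeR adjusted p = 0.399), and the DNA demethylase gene Tet1 at 522 CPM in ESC and 430.1, 462 and 497 CPM in the colonies (log2 change -0.17, SE 0.087, edgeR adjusted p = 0.227). Members that rose included Lin28a, Dppa2 and Dnmt3l. Lin28a, the RNA-binding protein that blocks let-7 maturation, was at 217 CPM in ESC and 366, 364 and 354 CPM in the colonies (log2 change 0.73, SE 0.083, edgeR adjusted p = 8.49e-05). Dppa2 rose by 0.51 and Dnmt3l by 0.34, the latter not past the threshold without colony 2. The labels do not name the Dox-driven genes, and counts per gene do not separate RNA of such transgenes from that of the cells' own Pou5f1, Sox2, Klf4 and Myc, which was not tested.

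**Figure D2:**
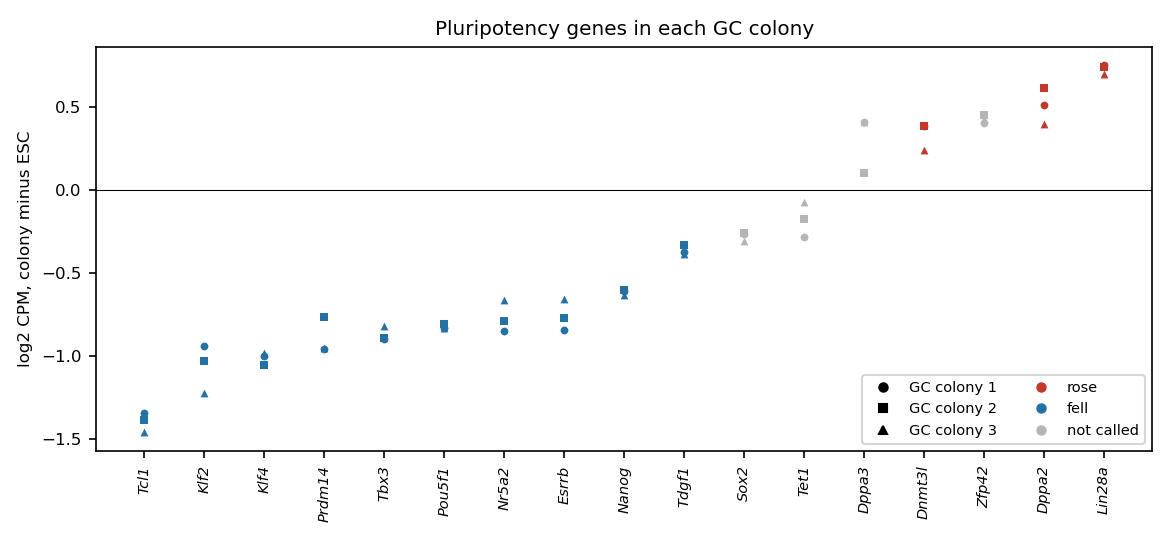
Difference of each GC colony from ESC in log2 CPM (y axis) for 17 genes of the naive and general pluripotency list that are described in the text, ordered from the largest fall to the largest rise; marker shapes are the 3 colonies and colors the edgeR call. The points of a gene lie close together, with 10 genes called lower on the left, 3 called higher toward the right, and 4 not called.

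More genes of the formative and primed states rose than fell: 13 of 28 rose and 4 fell, with a median of 0.52. Otx2, the transcription factor that drives exit from the naive state, was at 18.1 CPM in ESC and 53.8, 51.1 and 55.8 CPM in the colonies (log2 change 1.56, SE 0.17, edgeR adjusted p = 5.78e-05). Dnmt3b, a de novo DNA methyltransferase, was at 105 CPM in ESC and 296, 289 and 304 CPM in the colonies (log2 change 1.49, SE 0.15, edgeR adjusted p = 3.86e-05), and its relative Dnmt3a at 169 CPM in ESC and 249, 249.7 and 261 CPM in the colonies (log2 change 0.58, SE 0.083, edgeR adjusted p = 0.000425). In these 3 genes every colony lay above ESC, and the colonies differed little. Pou3f1 (Oct6) went from 15.5 CPM to 34.4, 35.5 and 26.2 CPM, and Lefty1, the secreted Nodal inhibitor, from 72.9 CPM to 183, 166 and 147 CPM, log2 changes of 1.04 and 1.18. Fgf5, the classical marker of the early epiblast, was low throughout, at 0.268 CPM in ESC and 4.22, 2.38 and 3.95 CPM in the colonies (log2 change 3.70, SE 0.78, edgeR adjusted p = 0.00631). Cer1, another secreted inhibitor, had 0.134 CPM in ESC and 2.03, 1.46 and 1.13 CPM in the colonies (log2 change 3.49, SE 0.66, edgeR adjusted p = 0.00306). The calls of Fgf5 and Cer1 were lost with limma-voom. Against the trend of the list, the zinc finger factor genes Zic2 and Sall3 fell: Zic2 was at 62.3 CPM in ESC and 28.8, 29.8 and 29.2 CPM in the colonies (log2 change -1.09, SE 0.14, edgeR adjusted p = 0.00023), and Sall3 fell by 1.34 on the log2 scale. Nodal signalling genes as a group moved less, with 4 of 21 higher and 3 lower. T, the gene of the primitive streak factor Brachyury, was at 0.469 CPM in ESC and 0.777, 1.46 and 2.29 CPM in the colonies (log2 change 1.67, SE 0.68, edgeR adjusted p = 0.134), spread widely over the colonies.

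The 2-cell-like genes had the highest median change of the 43 lists examined. Of 43 tested members 40 rose, each with a log2 change of 1 or more, and none fell. The median was 2.59, or 2.48 with the genes at 0 counts in ESC set to their lower bound. Zscan4c, which lies at chr7:11005745-11010547 of mm10 (GRCm38) on the plus strand, encodes a zinc finger protein linked to telomere upkeep in these cells. It was at 22.4 CPM in ESC and 139, 155 and 148 CPM in the colonies (log2 change 2.71, SE 0.21, edgeR adjusted p = 7.93e-06). Its copies Zscan4a, Zscan4d and Zscan4f rose by 2.87, 2.89 and 2.85. Copies of this family are nearly identical, so how the reads divide between them is uncertain, and the same holds for the Usp17l, Tcstv and eIF1a-like (Gm2022) families. Usp17lb, a deubiquitinase gene, was at 1.27 CPM in ESC and 11.99, 14.7 and 14.998 CPM in the colonies (log2 change 3.44, SE 0.32, edgeR adjusted p = 2.08e-05). Tcstv3 was at 1.47 CPM in ESC and 12.7, 12.7 and 11.99 CPM in the colonies (log2 change 3.07, SE 0.26, edgeR adjusted p = 1.15e-05), and Gm2022 at 0.871 CPM in ESC and 8.57, 10.00 and 7.88 CPM in the colonies (log2 change 3.33, SE 0.37, edgeR adjusted p = 7.34e-05). In each of these 3 genes the colonies lay close together and far above ESC. Duxf3, the mouse Dux gene that switches the state on, was at 1.07 CPM in ESC and 3.11, 3.57 and 5.05 CPM in the colonies (log2 change 1.86, SE 0.40, edgeR adjusted p = 0.00713). Zfp352, a target of Dux, had 2.14 CPM in ESC and 11.8, 13.6 and 15.2 CPM in the colonies (log2 change 2.65, SE 0.34, edgeR adjusted p = 0.000189), and Sp110, a nuclear body protein gene, 3.22 CPM in ESC and 23.97, 25.7 and 23.1 CPM in the colonies (log2 change 2.91, SE 0.41, edgeR adjusted p = 0.000384). Tdpoz2 had 0 counts in ESC and 0.749, 0.762 and 1.07 CPM in the colonies, which is at least 8.55-fold higher than the floor of 3 counts, and its call was lost with limma-voom. Genes known to hold this state down moved little, with 2 of 22 higher, none lower and a median of 0.023. One of the rises was Rif1, at 241 CPM in ESC and 296, 319.9 and 397 CPM in the colonies (log2 change 0.49, SE 0.13, edgeR adjusted p = 0.0241). Trim28, the corepressor of endogenous retroviruses, was at 2092 CPM in ESC and 2178, 2232 and 2006 CPM in the colonies (log2 change 0.032, SE 0.073, edgeR adjusted p = 0.835). In bulk RNA more cells of this state and more RNA per cell cannot be told apart, here and in every other list.

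**Figure D3:**
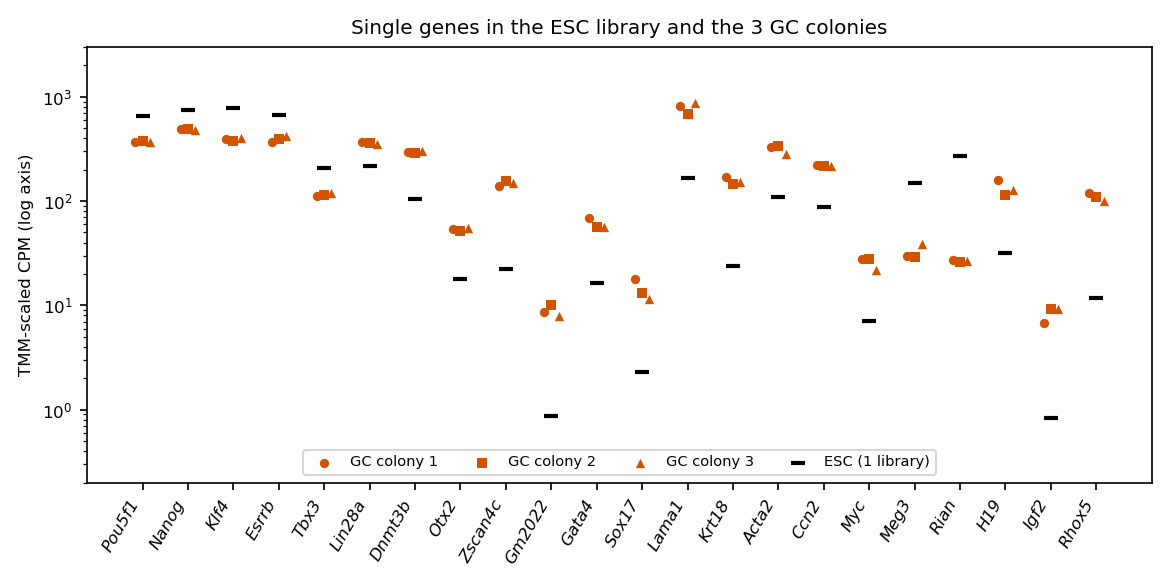
TMM-scaled CPM on a log axis for 22 genes, with the ESC library as a black bar and the 3 GC colonies as orange markers. Naive factors and the noncoding RNAs Meg3 and Rian lie below the ESC bar in the colonies; Otx2, Zscan4c, Gata4, Krt18, Myc, H19, Igf2 and Rhox5 lie above it.

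Primitive endoderm genes had the highest share of rises among the lineage lists: 24 of 30 rose, all by at least 1, 1 fell, and the median was 1.99. The list holds transcription factors, basement membrane chains and receptors. Of the factors, Gata6 was at 9.31 CPM in ESC and 38.6, 27.3 and 28.1 CPM in the colonies (log2 change 1.75, SE 0.29, edgeR adjusted p = 0.0012), Gata4 at 16.5 CPM in ESC and 68.6, 56.3 and 56.5 CPM in the colonies (log2 change 1.88, SE 0.26, edgeR adjusted p = 0.000412), and Sox17 at 2.28 CPM in ESC and 17.9, 13.01 and 11.6 CPM in the colonies (log2 change 2.64, SE 0.43, edgeR adjusted p = 0.00116). Colony 1 was the highest of the 3 in all of these factors. Sox7 rose by 1.78 and Foxa2 by 2.08, the latter not with limma-voom. The basement membrane genes made the largest difference in CPM. Col4a1, a collagen IV chain, lies at chr8:11198423-11312826 on the minus strand of mm10 and had 193 CPM in ESC and 977, 854 and 1032 CPM in the colonies (log2 change 2.30, SE 0.24, edgeR adjusted p = 3.83e-05). Its partner Col4a2 had 115 CPM in ESC and 544, 473 and 549 CPM in the colonies (log2 change 2.18, SE 0.22, edgeR adjusted p = 3.27e-05). These genes rose although chromosome 8, where they lie, was lower as a whole in the colonies (median -0.28). Of the laminin chains, Lama1 was at 166 CPM in ESC and 812, 686 and 873 CPM in the colonies (log2 change 2.25, SE 0.26, edgeR adjusted p = 9.73e-05), Lamb1 at 201 CPM in ESC and 756, 657 and 814 CPM in the colonies, and Lamc1 at 512 CPM in ESC and 1050.0, 968 and 1169 CPM in the colonies. Colony 2 was the lowest of the 3 for each of these 5 chains. Endocytic receptor genes of the yolk sac followed: Lrp2 was at 35.1 CPM in ESC and 208, 181 and 233 CPM in the colonies (log2 change 2.56, SE 0.25, edgeR adjusted p = 2.65e-05), Cubn rose by 1.97 and Dab2, their adaptor, by 2.02. The receptor gene Pdgfra was at 5.36 CPM in ESC and 22.7, 19.11 and 22.8 CPM in the colonies (log2 change 2.01, SE 0.30, edgeR adjusted p = 0.000702), and the ligand gene Bmp2 at 0.804 CPM in ESC and 8.16, 6.71 and 6.34 CPM in the colonies (log2 change 3.13, SE 0.44, edgeR adjusted p = 0.000412). Hnf4a was at 2.14 CPM in ESC and 5.44, 3.75 and 5.58 CPM in the colonies (log2 change 1.20, SE 0.42, edgeR adjusted p = 0.0833). Afp, a product of mature yolk sac, was low, at 0.603 CPM in ESC and 0.666, 0.427 and 0.690 CPM in the colonies. Apoe, the gene that fell, was at 523 CPM in ESC and 446, 434 and 395 CPM in the colonies (log2 change -0.30, SE 0.089, edgeR adjusted p = 0.0412), a call lost in 4 of 12 other settings including the fit without colony 2.

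Trophoblast genes split. Of 22 tested members 11 rose and 2 fell, with a median of 0.64. Those that rose included keratins of simple epithelia: Krt18 was at 23.7 CPM in ESC and 169, 147 and 154 CPM in the colonies (log2 change 2.73, SE 0.15, edgeR adjusted p = 5.07e-07) and its partner Krt8 at 48.7 CPM in ESC and 236, 215 and 211 CPM in the colonies (log2 change 2.18, SE 0.12, edgeR adjusted p = 4.40e-07). Hand1, a factor of giant cells, was at 1.68 CPM in ESC and 13.5, 14.96 and 9.73 CPM in the colonies (log2 change 2.92, SE 0.34, edgeR adjusted p = 9.44e-05). The trophoblast stem cell factor genes Cdx2, Eomes and Tfap2c did not rise, whereas the receptor gene Fgfr2, also on this list, rose by 2.10. Cdx2 was at 0.469 CPM in ESC and 0.666, 0.549 and 0.847 CPM in the colonies (log2 change 0.55, SE 0.71, edgeR adjusted p = 0.685), Eomes at 17.7 CPM in ESC and 10.6, 9.91 and 10.4 CPM in the colonies (log2 change -0.77, SE 0.16, edgeR adjusted p = 0.00635), and Tfap2c at 99.7 CPM in ESC and 64.8, 65.98 and 64.3 CPM in the colonies (log2 change -0.62, SE 0.13, edgeR adjusted p = 0.00522). Of these, Eomes and Tfap2c fell. X-linked homeobox genes of the Rhox cluster rose too, and Rhox5 had one of the largest rises among protein-coding genes of at least 5 CPM. Rhox5, at chrX:37804842-37808876 on the plus strand, was at 11.9 CPM in ESC and 119.7, 109 and 101.1 CPM in the colonies (log2 change 3.21, SE 0.22, edgeR adjusted p = 2.76e-06), and Rhox9 at 1.81 CPM in ESC and 11.3, 12.2 and 12.05 CPM in the colonies (log2 change 2.71, SE 0.28, edgeR adjusted p = 3.68e-05). All 3 colonies lay far above ESC for both genes. Of 27 gastrulation genes 8 rose and 2 fell, and of 27 neural lineage genes 3 rose and 6 fell. Sox1, an early neural factor on chromosome 8, was at 13.3 CPM in ESC and 5.16, 3.35 and 2.35 CPM in the colonies (log2 change -1.87, SE 0.34, edgeR adjusted p = 0.00261). Among 31 Hox genes 2 rose, Hoxc6 and Hoxc8, both under 4 CPM and neither called with limma-voom, nor Hoxc6 without colony 2.

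Imprinted genes differed most at the Dlk1-Dio3 cluster of chromosome 12, whose maternal noncoding RNAs are used to grade iPSC clones. All 3 of the long RNAs transcribed from the maternal copy were lower in every colony. Meg3, at chr12:109541001-109571726 on the plus strand, was at 148 CPM in ESC and 29.6, 29.2 and 38.8 CPM in the colonies (log2 change -2.18, SE 0.15, edgeR adjusted p = 2.87e-06). Rian, at chr12:109603940-109661716, was at 269.6 CPM in ESC and 27.2, 25.9 and 26.7 CPM in the colonies (log2 change -3.34, SE 0.20, edgeR adjusted p = 1.02e-06). Mirg, at chr12:109729764-109749460, was at 8.04 CPM in ESC and 0.277, 0.792 and 0.690 CPM in the colonies (log2 change -3.78, SE 0.44, edgeR adjusted p = 9.70e-05). No colony came near the ESC level in any of them, and the 3 colonies differed from each other far less than from ESC. The paternally expressed genes of the cluster were low in all 4 libraries. Dlk1, a Notch ligand homologue, was at 5.83 CPM in ESC and 4.61, 4.94 and 4.24 CPM in the colonies (log2 change -0.34, SE 0.24, edgeR adjusted p = 0.406). Rtl1, which lies opposite maternal microRNAs and shares sequence with them, was at 0.503 CPM in ESC and 0.139, 0.122 and 0.0628 CPM in the colonies (log2 change -2.17, SE 0.98, edgeR adjusted p = 0.173).

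Other imprinted genes moved in both directions. Of 27 paternally expressed genes 4 rose and 1 fell, and of 28 maternally expressed genes 4 rose and 5 fell, 3 of these being the noncoding RNAs of the Dlk1-Dio3 cluster. At the H19-Igf2 locus of chromosome 7 both partners rose, although they are expressed from opposite parental copies. The noncoding RNA H19, at chr7:142575529-142578143, was at 31.5 CPM in ESC and 159, 113 and 129 CPM in the colonies (log2 change 2.09, SE 0.22, edgeR adjusted p = 5.28e-05). Igf2, the fetal growth factor gene at chr7:142650766-142666816, was at 0.838 CPM in ESC and 6.74, 9.14 and 9.29 CPM in the colonies (log2 change 3.32, SE 0.32, edgeR adjusted p = 2.73e-05). Both were higher in every colony than in ESC. Peg10, a paternal gene needed by the placenta, was at 195 CPM in ESC and 331, 356 and 374 CPM in the colonies (log2 change 0.86, SE 0.13, edgeR adjusted p = 0.000661). Sfmbt2, another paternal gene of the placenta, was at 56.7 CPM in ESC and 117, 113 and 127 CPM in the colonies (log2 change 1.07, SE 0.14, edgeR adjusted p = 0.000226). Cdkn1c, the maternally expressed inhibitor of the cell cycle, was at 8.61 CPM in ESC and 15.5, 17.2 and 14.1 CPM in the colonies (log2 change 0.85, SE 0.19, edgeR adjusted p = 0.00985). Peg3 was at 125 CPM in ESC and 96.3, 97.4 and 139 CPM in the colonies (log2 change -0.18, SE 0.21, edgeR adjusted p = 0.643) and Igf2r at 110.4 CPM in ESC and 126, 133 and 162 CPM in the colonies (log2 change 0.35, SE 0.13, edgeR adjusted p = 0.0934). For Peg3 the ESC value lay inside the range of the colonies.

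Genes of contractile actin and targets of the coactivator YAP were higher nearly throughout, with 26 of 30 called, none lower and a median of 0.93. YAP binds DNA through TEAD factors, and the serum response factor (SRF) binds the CArG box, and both act on genes of the actin cytoskeleton. The promoters of a few risen members are shown because their upstream bases hold these motifs. Each sequence is from RefSeq on GRCm38.p6, read 5′ to 3′ on the strand of the gene within 250 bases before its start, in lower case with the motif in capitals. In the first set the capitals mark the TEAD motif GGAATG on either strand.
Ankrd1, chr19:36119945-36120064, minus strand: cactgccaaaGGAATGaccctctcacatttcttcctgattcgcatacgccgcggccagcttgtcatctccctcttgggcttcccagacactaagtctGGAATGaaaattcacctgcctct
Ccn1, chr3:145650046-145650145, minus strand: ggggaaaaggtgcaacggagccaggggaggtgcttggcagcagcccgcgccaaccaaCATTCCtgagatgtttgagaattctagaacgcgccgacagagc
Amotl2, chr9:102717684-102717783, plus strand: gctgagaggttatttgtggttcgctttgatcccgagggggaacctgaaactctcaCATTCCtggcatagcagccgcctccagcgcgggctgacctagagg
In the second set the capitals mark the CArG box.
Myl9, chr2:156775264-156775343, plus strand: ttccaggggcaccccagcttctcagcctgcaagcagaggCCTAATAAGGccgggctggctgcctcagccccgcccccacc
Cnn2, chr10:79988500-79988579, plus strand: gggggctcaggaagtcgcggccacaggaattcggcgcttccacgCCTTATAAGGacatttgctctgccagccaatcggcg
Vcl, chr14:20929148-20929227, plus strand: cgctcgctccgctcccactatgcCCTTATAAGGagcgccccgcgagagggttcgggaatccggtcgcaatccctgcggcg

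Of the 30 members 25 had a promoter in the table, and 14 of them (56.0%) held GGAATG on either strand, against 10.7% of 11987 promoters of tested protein-coding genes. A CArG box was present in 4 of the 25 , against 1.16% of all. The vinculin gene Vcl held both motifs. These matches are descriptions of letters, not of binding, and YAP, TEAD and SRF targets were put on the list for their known regulation. The ankyrin repeat gene Ankrd1, a standard readout of YAP, was at 8.48 CPM in ESC and 38.7, 36.6 and 36.8 CPM in the colonies (log2 change 2.14, SE 0.19, edgeR adjusted p = 1.62e-05). Ccn1 (Cyr61) was at 122 CPM in ESC and 269, 246 and 274 CPM in the colonies (log2 change 1.11, SE 0.13, edgeR adjusted p = 8.02e-05) and Ccn2 (CTGF) at 87.3 CPM in ESC and 223, 215 and 214 CPM in the colonies (log2 change 1.32, SE 0.12, edgeR adjusted p = 1.54e-05), both secreted matrix proteins. Amotl2, a YAP-binding protein that limits it, had 98.8 CPM in ESC and 202, 179 and 203 CPM in the colonies (log2 change 0.98, SE 0.12, edgeR adjusted p = 0.000163). All 3 colonies exceeded ESC in each of these 4 genes. On the actin side, Acta2, smooth muscle actin, was at 109 CPM in ESC and 331, 341 and 280.4 CPM in the colonies (log2 change 1.55, SE 0.13, edgeR adjusted p = 1.40e-05). The myosin light chain gene Myl9 was at 14.1 CPM in ESC and 40.01, 39.9 and 34.6 CPM in the colonies (log2 change 1.44, SE 0.20, edgeR adjusted p = 0.000306) and the calponin gene Cnn2 at 80.7 CPM in ESC and 160.4, 152 and 136 CPM in the colonies (log2 change 0.89, SE 0.12, edgeR adjusted p = 0.000251). Tropomyosin 1 (Tpm1) was at 136 CPM in ESC and 312, 314 and 299.5 CPM in the colonies (log2 change 1.18, SE 0.088, edgeR adjusted p = 5.72e-06). Vcl rose from 43.5 CPM to 63.2, 70.9 and 96.5 CPM, with colony 3 well above the other two. The 4 members that were not called were the regulators themselves. Yap1 was at 189 CPM in ESC and 193, 198 and 205 CPM in the colonies, Tead1 at 197 CPM in ESC and 207, 208 and 225 CPM in the colonies, Srf at 85.4 CPM in ESC and 79.1, 77.99 and 78.5 CPM in the colonies, and Wwtr1 (TAZ) at 66.8 CPM in ESC and 60.04, 62.7 and 63.1 CPM in the colonies.

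Fibroblast and feeder markers moved with these groups. Of 37 tested markers 21 rose and 1 fell, with a median of 0.66, and their summed level was 4390 CPM in ESC against 6583, 6774 and 7266 CPM in the colonies. Thbs1, a matrix glycoprotein gene, was at 316 CPM in ESC and 672, 708 and 864 CPM in the colonies (log2 change 1.24, SE 0.15, edgeR adjusted p = 0.000107), Col1a1 at 212 CPM in ESC and 291, 321 and 319.7 CPM in the colonies (log2 change 0.55, SE 0.13, edgeR adjusted p = 0.0105), and Lox, which crosslinks collagen, at 96.9 CPM in ESC and 178, 174 and 200.1 CPM in the colonies (log2 change 0.92, SE 0.14, edgeR adjusted p = 0.000822). Col1a2 was at 91.5 CPM in ESC and 146, 158 and 170 CPM in the colonies, a rise of 0.79 on the log2 scale. Thy1 had 687 counts in ESC and 1265, 1227 and 1168 counts in the colonies. Lum and Dcn, 2 defining fibroblast genes, were near 0. Lum had 2 counts in ESC and 0, 0 and 4 counts in the colonies. Dcn had 16 counts against 12, 28 and 30. Col3a1 was at 31.2 CPM in ESC and 31.7, 33.3 and 47.8 CPM in the colonies (log2 change 0.27, SE 0.22, edgeR adjusted p = 0.475), highest in colony 3. Fn1, an abundant marker in the sum, was at 1664 CPM in ESC and 1437, 1606 and 1879 CPM in the colonies (log2 change -0.021, SE 0.11, edgeR adjusted p = 0.935). For Fn1 the ESC value lay inside the range of the colonies. Tgfbi, the marker that fell, was at 26.7 CPM in ESC and 13.4, 13.5 and 11.7 CPM in the colonies (log2 change -1.05, SE 0.16, edgeR adjusted p = 0.000752). The list shares 2 genes with the primitive endoderm list and 4 with the contractile list. Without the shared genes, 22 of 28 primitive endoderm genes and 22 of 26 contractile genes rose, whereas 15 of the 31 remaining fibroblast markers did. The part of feeder RNA in these rises was not tested beyond these values.

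**Figure D4:**
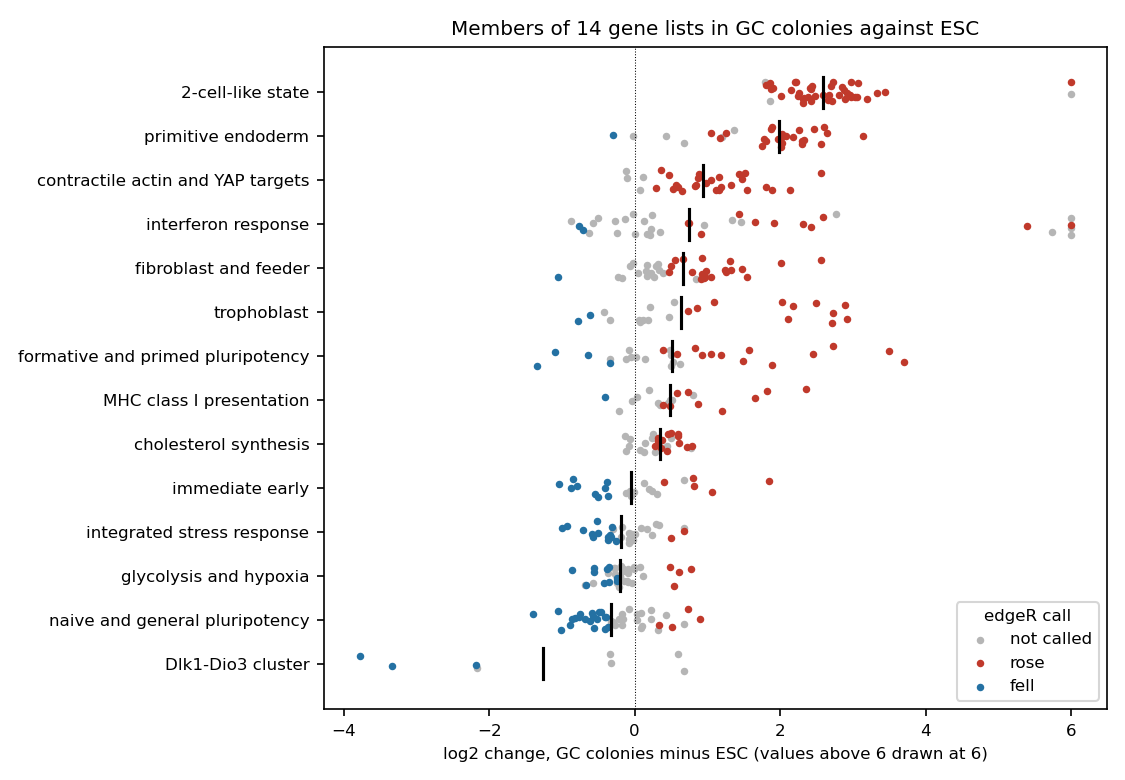
Log2 change of the GC colonies against ESC (x axis) for each tested member of 14 gene lists, colored by the edgeR call, with a black bar at the median of the list. Points at 6 include genes with 0 counts in ESC, whose position is no measured fold. The medians run from 2.59 in the 2-cell-like list to -1.26 in the Dlk1-Dio3 cluster, and 26 of 30 contractile genes and 24 of 30 primitive endoderm genes are called higher.

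Traces of the B cell origin were at or near 0. Ms4a1 (CD20) had 0 counts in all 4 libraries, which allows up to 3 counts or 0.083 to 0.101 CPM, a limit that covers counting error only. Ighm had 0 counts in ESC and 0, 0 and 6 in the colonies, and Igkc 0 counts against 4, 2 and 2. Ptprc (CD45) had 0 counts against 2, 4 and 5. Summed over 268 immunoglobulin gene segments, ESC had 19 counts and the colonies 82, 62 and 40. T cell receptor segments, which B cells do not rearrange, had 14 counts in ESC against 25, 19 and 20. Among 18 tested B cell identity genes none rose and 1 fell. Pax5, the factor that keeps B cells committed, was at 0.871 CPM in ESC and 0.444, 0.731 and 0.690 CPM in the colonies (log2 change -0.49, SE 0.87, edgeR adjusted p = 0.781). Ebf1 was at 3.28 CPM in ESC and 3.66, 3.11 and 4.17 CPM in the colonies (log2 change 0.15, SE 0.30, edgeR adjusted p = 0.805), with ESC inside the range of the colonies. The gene that fell was Tnfrsf13c, the BAFF receptor gene, from 5.56 CPM to 1.30, 1.55 and 0.973 CPM (log2 change -2.12, SE 0.37, edgeR adjusted p = 0.00179). Of 24 germinal center genes 2 rose and 2 fell. Irf4, which plasma cells and activated B cells use, was at 0.134 CPM in ESC and 3.38, 1.71 and 2.26 CPM in the colonies (log2 change 4.16, SE 0.87, edgeR adjusted p = 0.00628), a call lost with limma-voom. Both falls, Irf8 and Mef2b, lie on chromosome 8, and the call of Irf8 was lost without colony 1 (edgeR adjusted p = 0.0549) and also without colony 2.

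Other blood and vessel genes included Csf1r, the receptor of macrophages, with 0 counts in ESC and 3.38, 2.29 and 3.14 CPM in the colonies. That is at least 29.2-fold higher than the floor of 3 counts, and its call was lost with limma-voom. Of 18 T cell and myeloid genes it was the only one called. Of 13 endothelial and erythroid genes 5 rose and none fell. Tie1, an endothelial receptor gene, was at 2.78 CPM in ESC and 20.3, 25.5 and 18.01 CPM in the colonies (log2 change 2.93, SE 0.42, edgeR adjusted p = 0.000425), and its relative Tek at 2.81 CPM in ESC and 7.99, 9.39 and 7.06 CPM in the colonies (log2 change 1.53, SE 0.28, edgeR adjusted p = 0.00269). Cdh5 and Kdr stayed under 3 CPM, and both calls were lost with limma-voom, that of Kdr also without colony 2.

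Signalling genes moved member by member. In the LIF and STAT3 list 2 of 17 rose and 3 fell. Stat3 was at 122 CPM in ESC and 107, 100.97 and 119 CPM in the colonies (log2 change -0.17, SE 0.10, edgeR adjusted p = 0.326), while the target Gbx2 rose from 11.02 CPM to 23.9, 23.2 and 18.4 CPM and Osmr, a receptor of the LIF family, from 3.55 CPM to 6.74, 7.31 and 7.03 CPM. The call of Osmr was lost with limma-voom and without colony 2. Of 24 genes of FGF signalling and its feedback 8 rose and 3 fell. Fgfr2, the receptor used by trophoblast and endoderm, was at 4.19 CPM in ESC and 16.5, 17.4 and 20.1 CPM in the colonies (log2 change 2.10, SE 0.20, edgeR adjusted p = 2.66e-05). In the BMP list 8 of 22 rose and 2 fell, and in the Wnt list 7 of 32 rose and 2 fell. Wnt7b was at 3.59 CPM in ESC and 16.6, 13.8 and 13.8 CPM in the colonies (log2 change 2.04, SE 0.22, edgeR adjusted p = 5.64e-05) and Wnt4 at 1.41 CPM in ESC and 6.33, 7.19 and 4.36 CPM in the colonies (log2 change 2.08, SE 0.36, edgeR adjusted p = 0.00164). Sfrp1, a secreted Wnt inhibitor on chromosome 8, was at 159.9 CPM in ESC and 39.6, 41.2 and 39.5 CPM in the colonies (log2 change -1.995, SE 0.18, edgeR adjusted p = 1.55e-05). Ctnnb1 (beta-catenin) was at 580.2 CPM in ESC and 581, 582 and 631 CPM in the colonies (log2 change 0.044, SE 0.077, edgeR adjusted p = 0.78). Inhba, which encodes the Activin A subunit, was at 21.04 CPM in ESC and 54.9, 60.3 and 68.5 CPM in the colonies (log2 change 1.54, SE 0.18, edgeR adjusted p = 9.73e-05) and its inhibitor Fst at 4.79 CPM in ESC and 15.2, 16.6 and 15.97 CPM in the colonies (log2 change 1.73, SE 0.20, edgeR adjusted p = 9.70e-05). Both ligand and inhibitor were thus higher in all 3 colonies.

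Of 36 tested interferon-stimulated genes 11 rose and 2 fell, with a median of 0.74, and 5 had 0 counts in ESC. With limma-voom 7 rose. Many genes of the response carry the interferon-stimulated response element. It was found on either strand in 11 of 27 upstream regions (40.7%), against 2.5% of all. Members were listed as known interferon-stimulated genes, so this share describes the list and not the change from ESC. In the 3 examples shown the element is in capitals, the first 2 from genes that rose and the last from one that fell.
Gbp2, chr3:142620563-142620642, plus strand: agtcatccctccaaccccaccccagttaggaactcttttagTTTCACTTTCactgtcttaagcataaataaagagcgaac
Gbp3, chr3:142559944-142560043, plus strand: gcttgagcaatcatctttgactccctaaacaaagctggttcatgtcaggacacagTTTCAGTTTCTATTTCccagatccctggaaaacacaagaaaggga
Ifitm2, chr7:140955962-140956061, minus strand: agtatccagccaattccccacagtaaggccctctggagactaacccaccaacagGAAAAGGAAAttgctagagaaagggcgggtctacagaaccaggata

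Gbp2, a guanylate-binding protein gene, was at 4.05 CPM in ESC and 20.004, 19.7 and 21.1 CPM in the colonies (log2 change 2.32, SE 0.19, edgeR adjusted p = 9.58e-06). Its neighbor Gbp3, whose region holds 2 overlapping matches, had 2 counts in ESC and 2.75, 2.80 and 3.36 CPM in the colonies (edgeR adjusted p = 7.97e-05). Oasl2 was at 1.41 CPM in ESC and 7.44, 8.05 and 7.19 CPM in the colonies (log2 change 2.42, SE 0.38, edgeR adjusted p = 0.000896) and the transcription factor gene Irf1 at 19.9 CPM in ESC and 37.7, 37.4 and 36.9 CPM in the colonies (log2 change 0.91, SE 0.13, edgeR adjusted p = 0.00041). Every colony exceeded ESC in these 4 genes. Ifih1, the RNA sensor MDA5, had 0 counts in ESC and 0.499, 0.610 and 0.628 CPM in the colonies, at least 5.76-fold above the floor of 3 counts. The membrane proteins that block virus entry went the other way: Ifitm2 was at 167 CPM in ESC and 112, 106 and 88.4 CPM in the colonies (log2 change -0.71, SE 0.12, edgeR adjusted p = 0.00117) and Ifitm3 at 129 CPM in ESC and 81.4, 78.3 and 68.7 CPM in the colonies (log2 change -0.76, SE 0.19, edgeR adjusted p = 0.0156). The call of Ifih1 was lost with limma-voom and that of Ifitm3 with DESeq2. In antigen presentation by MHC class I, 9 of 20 genes rose and 1 fell, with a median of 0.48. The heavy chain gene H2-D1 was at 12.5 CPM in ESC and 30.8, 27.1 and 27.96 CPM in the colonies (log2 change 1.20, SE 0.17, edgeR adjusted p = 0.000415), and the trimming peptidase gene Erap1 at 1.94 CPM in ESC and 6.66, 6.46 and 7.40 CPM in the colonies (log2 change 1.81, SE 0.27, edgeR adjusted p = 0.000582). Tap1, which moves peptides into the endoplasmic reticulum, rose by 0.73. Reads of the MHC heavy chains depend on the haplotype, which the labels do not give. Calr, the chaperone calreticulin on chromosome 8, was at 904 CPM in ESC and 680.5, 657 and 717 CPM in the colonies (log2 change -0.40, SE 0.086, edgeR adjusted p = 0.00715).

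Genes of the integrated stress response, through which ATF4 raises amino acid supply, were lower in part: 13 of 32 fell, 2 rose, and the median was -0.19. Without colony 2, 8 fell. The amino acid response motif TGATGNAA, to which ATF4 partners bind, was present in 9 of 27 upstream regions (33.3%), against 2.09% of all. Members were listed as known genes of the response, so this share describes the list and not the change from ESC. Chac1, which also holds the motif, rose instead. Its level was 19.5 CPM in ESC and 31.5, 37.1 and 24.7 CPM in the colonies (log2 change 0.67, SE 0.20, edgeR adjusted p = 0.0377). That call was kept in 8 of 12 other settings. The motif is shown in capitals for 3 members that fell.
Asns, chr6:7693210-7693289, minus strand: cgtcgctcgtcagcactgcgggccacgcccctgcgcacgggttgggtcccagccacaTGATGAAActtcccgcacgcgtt
Nupr1, chr7:126625541-126625620, minus strand: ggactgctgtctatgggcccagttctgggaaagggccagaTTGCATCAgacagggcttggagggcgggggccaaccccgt
Aars, chr8:111033692-111033771, plus strand: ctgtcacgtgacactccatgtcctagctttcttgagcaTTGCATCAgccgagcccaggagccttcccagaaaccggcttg

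Asns, asparagine synthetase, was at 695 CPM in ESC and 468, 477 and 456 CPM in the colonies (log2 change -0.57, SE 0.082, edgeR adjusted p = 0.000435). Nupr1, a stress-induced chromatin protein gene, was at 55.4 CPM in ESC and 27.97, 33.1 and 26.4 CPM in the colonies (log2 change -0.93, SE 0.16, edgeR adjusted p = 0.00156), and Aars, alanyl-tRNA synthetase, at 912 CPM in ESC and 626, 637 and 647 CPM in the colonies (log2 change -0.52, SE 0.070, edgeR adjusted p = 0.000291). Aars lies on chromosome 8. The glutamine transporter gene Slc1a5 was at 244 CPM in ESC and 119, 131 and 117 CPM in the colonies (log2 change -0.99, SE 0.091, edgeR adjusted p = 1.87e-05), and the transporter pair Slc7a5 and Slc3a2 at 518 CPM in ESC and 328, 329.6 and 295 CPM in the colonies and 527 CPM in ESC and 389.7, 371 and 354 CPM in the colonies. All 3 of these transporter genes fell in every colony. Atf4 itself was at 345 CPM in ESC and 332, 343 and 309 CPM in the colonies (log2 change -0.075, SE 0.086, edgeR adjusted p = 0.634).

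Glycolysis and hypoxia genes fell modestly: 10 of 38 were lower and 4 higher, with a median of -0.20, and 6 were lower without colony 2. Gapdh was at 6922 CPM in ESC and 5670.4, 5516 and 5026 CPM in the colonies (log2 change -0.36, SE 0.067, edgeR adjusted p = 0.00286), Gpi1, glucose phosphate isomerase, at 1588 CPM in ESC and 1097, 1073 and 1048 CPM in the colonies (log2 change -0.57, SE 0.065, edgeR adjusted p = 9.32e-05), and hexokinase 1 (Hk1) at 205 CPM in ESC and 121.1, 127 and 142 CPM in the colonies (log2 change -0.66, SE 0.10, edgeR adjusted p = 0.000895). Among the genes that rose, the collagen prolyl hydroxylase P4ha2 was at 81.2 CPM in ESC and 149, 131 and 137 CPM in the colonies (log2 change 0.78, SE 0.13, edgeR adjusted p = 0.00135). Cholesterol synthesis genes went the other way, with 13 of 28 higher, none lower and a median of 0.35, and 8 were higher without colony 2. Idi1, an isomerase of the pathway, was at 22.8 CPM in ESC and 35.1, 38.8 and 43.8 CPM in the colonies (log2 change 0.79, SE 0.14, edgeR adjusted p = 0.00236). Cyp51 rose by 0.59 and Hmgcs1 by 0.36. Members were listed for their known part in this pathway, so motif shares describe the list and not the change from ESC. The CCAAT box was present in 17 of 18 upstream regions of the list (94.4%), against 36.2% of all. The sterol regulatory element TCACNCCAC was present in 1 of 18 (5.56%), against 1.03%. That region, of Hmgcs1, is shown with both motifs in capitals, beside Idi1 with CCAAT alone.
Hmgcs1, chr13:119690101-119690350, plus strand: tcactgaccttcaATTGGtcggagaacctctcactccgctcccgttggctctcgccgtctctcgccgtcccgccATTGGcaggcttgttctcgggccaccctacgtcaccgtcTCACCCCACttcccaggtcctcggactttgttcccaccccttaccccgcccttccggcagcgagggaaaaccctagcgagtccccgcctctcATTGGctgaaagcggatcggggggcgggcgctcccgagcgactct
Idi1, chr13:8885506-8885605, plus strand: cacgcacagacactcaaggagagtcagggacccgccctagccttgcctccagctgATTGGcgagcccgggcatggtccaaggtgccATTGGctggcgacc

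The regulator gene Srebf2 was at 386 CPM in ESC and 353, 355 and 386 CPM in the colonies (log2 change -0.083, SE 0.094, edgeR adjusted p = 0.631).

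Immediate early genes, the first to answer serum or handling, were divided, with 9 of 23 lower and 5 higher. Fos was at 1082 CPM in ESC and 536, 506 and 537 CPM in the colonies (log2 change -1.04, SE 0.092, edgeR adjusted p = 1.54e-05) and Egr1 at 601 CPM in ESC and 325, 329 and 384 CPM in the colonies (log2 change -0.80, SE 0.091, edgeR adjusted p = 9.00e-05). Jun rose, at 170.8 CPM in ESC and 234, 216 and 226 CPM in the colonies (log2 change 0.40, SE 0.096, edgeR adjusted p = 0.0142). Myc, a reprogramming factor and growth regulator, was at 7.14 CPM in ESC and 27.6, 27.7 and 22.03 CPM in the colonies (log2 change 1.85, SE 0.18, edgeR adjusted p = 2.73e-05). Its targets in ribosome biogenesis moved little, with 1 of 39 higher and 1 lower and a median of 0.060. Nucleolin (Ncl) was at 2038 CPM in ESC and 2107, 2195 and 2555 CPM in the colonies (log2 change 0.17, SE 0.090, edgeR adjusted p = 0.269). The p53 list had 4 of 30 higher and 4 lower. Pmaip1 (Noxa), a gene of cell death, was at 182 CPM in ESC and 41.2, 42.6 and 43.4 CPM in the colonies (log2 change -2.10, SE 0.22, edgeR adjusted p = 4.09e-05), whereas the p53 target Cdkn1a was at 103 CPM in ESC and 100.2, 102 and 95.9 CPM in the colonies (log2 change -0.050, SE 0.094, edgeR adjusted p = 0.794). Trp53 itself was at 489 CPM in ESC and 386, 373 and 354 CPM in the colonies (log2 change -0.40, SE 0.080, edgeR adjusted p = 0.00468).

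In the cell cycle list 4 of 39 rose and 8 fell. Ccnd2, a D-type cyclin, was at 20.5 CPM in ESC and 67.2, 69.2 and 78.97 CPM in the colonies (log2 change 1.81, SE 0.20, edgeR adjusted p = 6.65e-05). Top2a was at 1017 CPM in ESC and 849, 894 and 1022 CPM in the colonies (log2 change -0.14, SE 0.10, edgeR adjusted p = 0.416). Of 31 Polycomb genes 2 rose and 4 fell, one of the falls being Suz12 at 312 CPM in ESC and 230.0, 229.6 and 255 CPM in the colonies (log2 change -0.39, SE 0.086, edgeR adjusted p = 0.00875). Of 20 DNA methylation genes 4 rose and 2 fell, with Tet2 at 178 CPM in ESC and 104, 118 and 135 CPM in the colonies (log2 change -0.59, SE 0.14, edgeR adjusted p = 0.0126) and Tdg, which removes oxidized methylcytosine, at 68.02 CPM in ESC and 34.9, 34.3 and 37.2 CPM in the colonies (log2 change -0.94, SE 0.11, edgeR adjusted p = 9.36e-05). Of 31 germline genes silenced by methylation 5 rose and 2 fell. Dazl was at 28.4 CPM in ESC and 22.6, 23.9 and 22.2 CPM in the colonies (log2 change -0.31, SE 0.15, edgeR adjusted p = 0.209). The piRNA pathway gene Piwil2 was at 47.6 CPM in ESC and 20.6, 23.3 and 23.3 CPM in the colonies (log2 change -1.09, SE 0.17, edgeR adjusted p = 0.000877). Among the largest rises that belong to no group above were Slco2a1, a prostaglandin transporter gene, at 5.16 CPM in ESC and 88.5, 71.96 and 78.8 CPM in the colonies (log2 change 3.95, SE 0.39, edgeR adjusted p = 3.07e-05), and Nrk, an X-linked kinase gene, at 1.88 CPM in ESC and 16.3, 16.03 and 17.01 CPM in the colonies (log2 change 3.13, SE 0.27, edgeR adjusted p = 1.40e-05). Among the largest falls was Pnp2, a purine nucleoside phosphorylase copy, at 8.44 CPM in ESC and 1.498, 1.10 and 0.659 CPM in the colonies (log2 change -2.95, SE 0.32, edgeR adjusted p = 6.18e-05). Rpl29, a ribosomal protein gene with many processed copies, was at 439 CPM in ESC and 102, 92.7 and 103 CPM in the colonies (log2 change -2.14, SE 0.087, edgeR adjusted p = 1.67e-08), so its reads may divide between copies.

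Genes of chromosome 8 were lower as a block. Among 776 genes of at least 1 CPM on it the median log2 change was -0.28, and the single colonies had -0.27, -0.28 and -0.31. The other autosomes ran from -0.073 (chromosome 17) to 0.044 (chromosome 18), and the 13961 genes outside chromosomes 8 and Y had a median of -0.0079. On chromosome 8, 31.1% of genes fell and 4.77% rose, against 6.22% and 9.63% elsewhere. All 3 colonies were lower than ESC for 68.6% of its genes, against 36.6% elsewhere. In bins of 20 Mb the median ran from -0.16 at its start to -0.35 between 100 and 120 Mb, so every bin was lower. Leaving out 1 colony kept the median of the chromosome between -0.29 and -0.27. The number of chromosomes in each culture was not measured. The called genes Klf2, Sfrp1, Sox1, Irf8, Mef2b, Calr, Aars and Slc7a5 lie on this chromosome. Without its genes the naive list still had 19 falls among 40, the stress response list 11 among 29 and the immediate early list 7 among 20, while Gsr, glutathione reductase, at 208 CPM in ESC and 107, 93.5 and 101.2 CPM in the colonies (log2 change -1.05, SE 0.089, edgeR adjusted p = 1.17e-05), was 1 of the 2 falls it gave to the Nrf2 list.

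**Figure D5:**
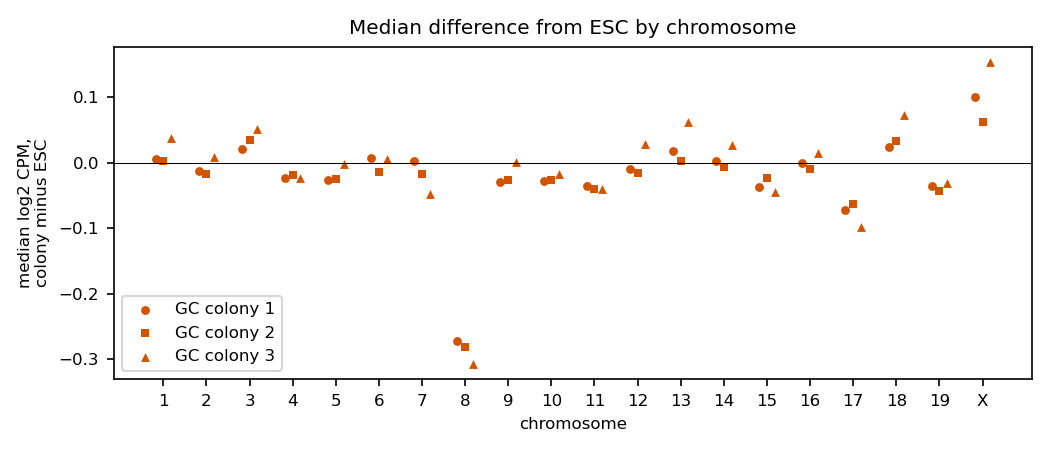
Median difference in log2 CPM from ESC of the genes of at least 1 CPM on each chromosome (y axis; Y is left out for its 5 genes), 1 marker for each GC colony. Chromosome 8 lies between -0.27 and -0.31 in the 3 colonies, apart from every other autosome, and X lies above 0 in each.

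Y-linked genes gave higher values in the colonies, which came from male mice, than in ESC, and V6.5 is a male line too. Ddx3y, an RNA helicase gene, was at 12.8 CPM in ESC and 47.6, 38.4 and 46.8 CPM in the colonies (log2 change 1.79, SE 1.62, edgeR adjusted p = 0.536). Eif2s3y, a translation factor gene, was at 6.70 CPM in ESC and 65.8, 58.3 and 69.3 CPM in the colonies (log2 change 3.27, SE 1.85, edgeR adjusted p = 0.288), and Uty, a demethylase homologue, at 5.29 CPM in ESC and 16.98, 17.1 and 18.6 CPM in the colonies (log2 change 1.73, SE 1.53, edgeR adjusted p = 0.525). All 3 colonies lay above ESC in each of these genes. None of 6 Y-linked genes passed the test in the fit of 7 libraries, in which M colonies 2 and 3 have 0 CPM for these genes. In the fit of the 4 libraries compared here 4 of 6 rose, as also without those 2 M colonies. On the X chromosome the median change was 0.097, and Xist, the RNA that silences an X, was at 8.41 CPM in ESC and 9.71, 13.4 and 16.2 CPM in the colonies (log2 change 0.64, SE 0.25, edgeR adjusted p = 0.122).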

How the data were processed

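RNA was sequenced from 7 mouse cultures, 4 of which are compared here. Per the submitters' processing notes the reads were aligned to mm10 (GRCm38) with STAR 2.7.10a and counted with featureCounts 2.0.6, and DESeq2 is also named there without a version. The authors deposited 1 table of counts per gene, not normalized. The labels disagree on the sequencer and on whether the libraries keep strand, and no source used here states the strand setting of the counting, so overlapping and antisense genes are uncertain. Counts under 50 were even in 68.5 to 72.2% of cases, against 49.5 to 50.9% at 1000 or more, so mates of a pair may have been counted separately, and halved counts were tried.

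From the deposited counts, genes were tested in R 4.3.3 with edgeR 4.0.16 (its quasi-likelihood test), with TMM scaling and the filterByExpr filter, in a fit of all 7 libraries (4 residual degrees of freedom). The standard error (SE) is the log2 change divided by the square root of F. Gene names and coordinates are from GENCODE M21, which held 54809 of 54838 identifiers. Of 15512 tested protein-coding genes 11987 had a RefSeq promoter. The floor used for a count of 0 is 3 counts, a limit of counting error alone. Alternatives were DESeq2 1.42.0 size factors and its test, limma-voom (limma 3.58.1), other filters, scaling without chromosome 8, fits of fewer libraries and each colony left out.

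The groups and the 43 gene lists were chosen with earlier results of these data known. Genes were named by a rule: anchor genes, the 15 largest rises and falls of protein-coding genes of at least 5 CPM whose ESC value lies outside the colonies, the 10 largest rises and falls in CPM, and for each list up to 4 called genes of largest change and the 2 uncalled of highest level. A further 70 genes, and Wwtr1, Afp, Thy1, Lum, Dcn, Gm42047 and Gm10499, were chosen after their values were seen. The scripts were tested on simulated data. Some results are not reported here.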

Additional observations from a re-analysis of the deposited data

Results flagged for a closer look

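The other 3 iPSC colonies, titled M, were compared with the GC colonies in the same fit, and 61 of the 351 named genes differed between the 2 sources (edgeR, adjusted p under 0.05), against 1.51% of 20502 tested genes higher and 1.96% lower in the M colonies. Named genes were picked in part for large GC changes, so their share is not directly comparable with that of all genes. Values are given for the 16 among the 89 genes named as anchors or for the largest changes. All values are M minus GC on the log2 scale, and since both sources are set against the same ESC library, this is also the difference between their changes. Of 43 tested naive and general pluripotency genes 4 were higher and 6 lower in the M colonies. Among those higher, the difference was 0.39 for Pou5f1 (edgeR adjusted p = 0.000903), 0.40 for Klf4 (adjusted p = 0.00509) and 0.24 for Dnmt3l (adjusted p = 0.0450). The formative factor Otx2 differed by -0.85 (edgeR adjusted p = 0.000623). Of 43 tested 2-cell-like genes 26 were lower in the M colonies and 0 higher, with Zscan4c at -0.87 (edgeR adjusted p = 0.00167), Tcstv3 at -1.17 (adjusted p = 0.000504) and Gm2022 at -0.99 (adjusted p = 0.0131). Of 27 paternally expressed imprinted genes 5 were higher in the M colonies, and of 28 maternally expressed ones 2, with none lower. Among them were Rian at 0.65 (edgeR adjusted p = 0.0462), Igf2 at 0.71 (adjusted p = 0.0228) and Peg10 at 1.04 (adjusted p = 2.14e-05). The remaining genes were Gm364 at -1.82 (edgeR adjusted p = 0.000215), Pnp2 at 2.61 (edgeR adjusted p = 0.000105), Tagap1 at 1.82 (adjusted p = 2.56e-06), Igsf23 at 1.03 (adjusted p = 0.0122), Nrk at 0.69 (adjusted p = 0.0141) and Sfrp1 at 0.64 (adjusted p = 0.0221). Of the 16 genes, the M colonies lay closer to ESC than the GC colonies in 12 and farther from it in 4, which were Igf2, Peg10, Nrk and Dnmt3l. Many of these genes were picked for a large GC change, and the GC values enter both differences. Such a choice favors M values nearer to ESC, so these counts do not rank the 2 sources.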

How the results depend on the processing

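Of 221 values for 19 results under 12 other settings, 214 stayed near the value given and 7 moved. For counts, near means within 1.5 times, and a count has no sign to reverse. The median of chromosome 8 was the only signed result. It kept its sign in the settings tried for it and moved by less than the standard deviation over the colonies. With limma-voom 964 genes rose, 772 had a log2 change of 1 or more, and 7 interferon genes rose. Without colony 2, 703 genes fell in all, 8 in the stress response list and 6 in the glycolysis list, and 8 cholesterol genes rose. The cause was not tested. Leaving out each colony in turn gave 1842 to 2734 called genes, 1139 to 1517 rises, 703 to 1217 falls and 1001 to 1120 changes of at least 1. By list, it gave 39 to 40 rises of 2-cell-like genes, 24 of primitive endoderm, 24 to 26 of contractile, 18 to 19 of fibroblast, 12 to 14 of formative, 10 to 11 of trophoblast, 9 to 11 of interferon, 6 to 10 of MHC class I and 8 to 14 of cholesterol genes. Falls were 18 to 20 of naive, 8 to 11 of stress response, 6 to 11 of glycolysis, 8 to 9 of immediate early and 3 of Dlk1-Dio3 genes, and the median of chromosome 8 was -0.29 to -0.27. Of 249 called genes among the 351 named by rule or choice, 198 kept their call in every setting, 31 lost it without colony 2 and 30 with limma-voom. No paired analysis was possible because the ESC library carries no colony number. With 1 ESC library, leaving it out gives no comparison.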

Other observations

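A search made after the data were seen, for genes of at least 5 CPM on 1 side and at least 16-fold from every library of the other, gave 3 genes high in ESC and 1 high in the GC colonies. Gm42047, a long noncoding RNA gene at chr8:121833247-121841178 on the plus strand of mm10, was at 397 CPM in ESC, had 2 counts in colony 1 and 0 counts in colonies 2 and 3, and was at 350.2, 342 and 355 CPM in the 3 M colonies (edgeR adjusted p = 1.84e-14). On chromosome 17, in the region of the MHC, Gm10499, annotated as a pseudogene at chr17:36141758-36145923, was at 22.05 CPM in ESC, 0.222, 0.152 and 0.314 CPM in the GC colonies, and 11.1, 0.150 and 0.285 CPM in the M colonies. Its neighbor Gm8909, at chr17:36164443-36168537, was at 7.74 CPM in ESC, 0.0555, 0.152 and 0.314 CPM in the GC colonies, and 4.98, 0.0898 and 0.0951 CPM in the M colonies. For both, M colony 1 lay below ESC and far above the GC colonies, and M colonies 2 and 3 were near the GC colonies. Genes of this region have near-identical copies, so the division of reads is uncertain. Ptprb, a receptor phosphatase gene of vessels, was at 0.335 CPM in ESC and 6.10, 5.43 and 7.12 CPM in the GC colonies.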
